A study of Mus musculus with 8 samples.

Results

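Cytosolic ribosomal protein genes encode the proteins that, with ribosomal RNA, build the large and the small subunit of the ribosome outside mitochondria. They were followed here in lungs of newborn C57Bl/6J mouse pups. Members were the array features whose platform gene symbol was Rpl, Rplp or Rps with a number and an optional a, x, y, l or s. Kinases (Rps6k), pseudogene entries and mitochondrial ribosomal proteins were left out. This gave 72 genes of 20841 tested, read by 170 features of 31425. Genes were selected by symbol alone, but the set itself was picked from results of the same comparison, the log2 differences between the genotypes. All differences between the genotypes below are therefore descriptions, and nothing is supported by them. The lungs came from 4 wild-type and 4 Fgf10+/- pups, all kept at 20% oxygen, as in room air, inside a chamber between P0 and P3. Fgf10+/- pups, labelled TG, are heterozygous for Fgf10, a growth factor of lung mesenchyme. The sources used here do not state how that allele was made. Each pup's lung RNA was labelled with Cy3 and read on a 1-colour array.

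Every ribosome needs nearly every one of these proteins once, and dividing and secreting cells make them in large amounts. Many of their mRNAs begin with a terminal oligopyrimidine (TOP) tract, a C followed by a run of C and T, through which the mTOR kinase and the RNA-binding protein LARP1 switch their translation. Ribosomal protein genes are among the most strongly transcribed genes of any tissue, so on an array their signals crowd at the bright end. The values are log2 signals, and a difference of 1 is a doubling. Signals of different features cannot be set against each other as amounts of RNA.

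RefSeq windows around the annotated gene start (GRCm38.p6) were at hand for 58 of the 72 genes. A C followed by at least 4 pyrimidines, beginning within 10 bases of the start, stood in the window of 62.1% of these genes, against 34.4% of all 27025 genes of that table. The windows below run from 40 bases before the start to 20 bases from it on, with the pyrimidine run in capitals. They are shown because a TOP tract is the best known shared sequence of the set, and because each of these genes is described below.
Rpl35, chr2:39005112-39005171, minus strand: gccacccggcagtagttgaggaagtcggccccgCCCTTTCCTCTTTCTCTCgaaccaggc
Rps10, chr17:27635225-27635284, minus strand: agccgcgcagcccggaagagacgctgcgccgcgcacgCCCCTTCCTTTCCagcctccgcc
Rps27, chr3:90213629-90213688, minus strand: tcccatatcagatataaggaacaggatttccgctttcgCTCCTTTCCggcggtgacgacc
Rplp2, chr7:141447611-141447670, plus strand: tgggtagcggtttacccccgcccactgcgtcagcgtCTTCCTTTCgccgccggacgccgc
Rpl39, chrX:37085203-37085262, minus strand: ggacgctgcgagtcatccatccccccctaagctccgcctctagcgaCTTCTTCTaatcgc
Rps28, chr17:33824543-33824602, minus strand: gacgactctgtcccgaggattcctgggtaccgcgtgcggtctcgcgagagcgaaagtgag
Rpl37, chr15:5116573-5116632, plus strand: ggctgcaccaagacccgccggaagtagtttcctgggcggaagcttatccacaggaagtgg
Rplp0, chr5:115559427-115559486, plus strand: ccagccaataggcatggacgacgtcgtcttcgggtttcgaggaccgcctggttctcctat
In the last 3 no such run begins within 10 bases of the start. The run near the end of the Rplp0 window begins beyond that limit. This says only that these letters are not at the annotated start, since annotated and true starts can differ by some bases. Over the full window, from 250 bases before the start to 50 after it, the letters CCGGAAG (either strand), the core bound by ETS factors, were found for 43.1% of the members and 9.93% of all genes. The letters ATGGCG (either strand), found in sites of the factor YY1, were in 32.8% of members and 10.2% of all genes, and TATAAA (either strand) in 10.3% and 15.7%. A match to 1 search could overlap a match to another, and such overlaps were not removed. Among members other than copies, the 32 with a pyrimidine run had a median log2 difference of -0.057 between the genotypes and the 22 without one had -0.055, with 29 and 18 genes lower in mean. For CCGGAAG the medians were -0.056 in 23 genes with it and -0.055 in 31 without. For ATGGCG they were -0.082 in 16 genes with it and -0.051 in 38 without. These are descriptions, and no difference between such groups was tested.

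Most ribosomal protein genes were slightly dimmer in the Fgf10+/- lungs. Of the 72 genes, 62 had a lower and 10 a higher mean there. A lower mean was seen for 50.2% of all genes tested. The median log2 difference, Fgf10+/- minus wild type, was -0.053 over the members and -0.0012 over all genes, which on the linear scale is a signal 3.62% lower. The middle of the set was narrow, with the 25th percentile at -0.093 and the 75th at -0.014, and 55 of the 72 genes lay within 0.1 of 0. The median standard error of 1 gene's difference was 0.093 in limma, the linear model fitted to all genes. For most members the difference was smaller than this limma error. That error draws on an SD shared by all genes (0.237), which is above the members' own residual SDs (median 0.064).

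After Benjamini-Hochberg adjustment of limma's p-values over the 20841 genes, 0 of the 72 members and 0 genes overall (0.00% of those tested) passed an adjusted p of 0.05. At an unadjusted p under 0.05 there were 2 members, Rps19 and Rpl10l, both lower, beside 11.0% of all genes (6.29% lower and 4.74% higher). When limma's variance was allowed to follow signal strength with robust settings, 1.99% of all genes passed (1.28% lower and 0.710% higher) and among the members only Rps19 did (adjusted p = 0.0160). Residual SDs of the members had a median of 0.064, against 0.31 over all genes, and the usual fit pulls each gene's SD toward a shared 0.237. Since the comparison is the one with which the set was proposed, nothing is read from these counts.

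**Figure D1:**
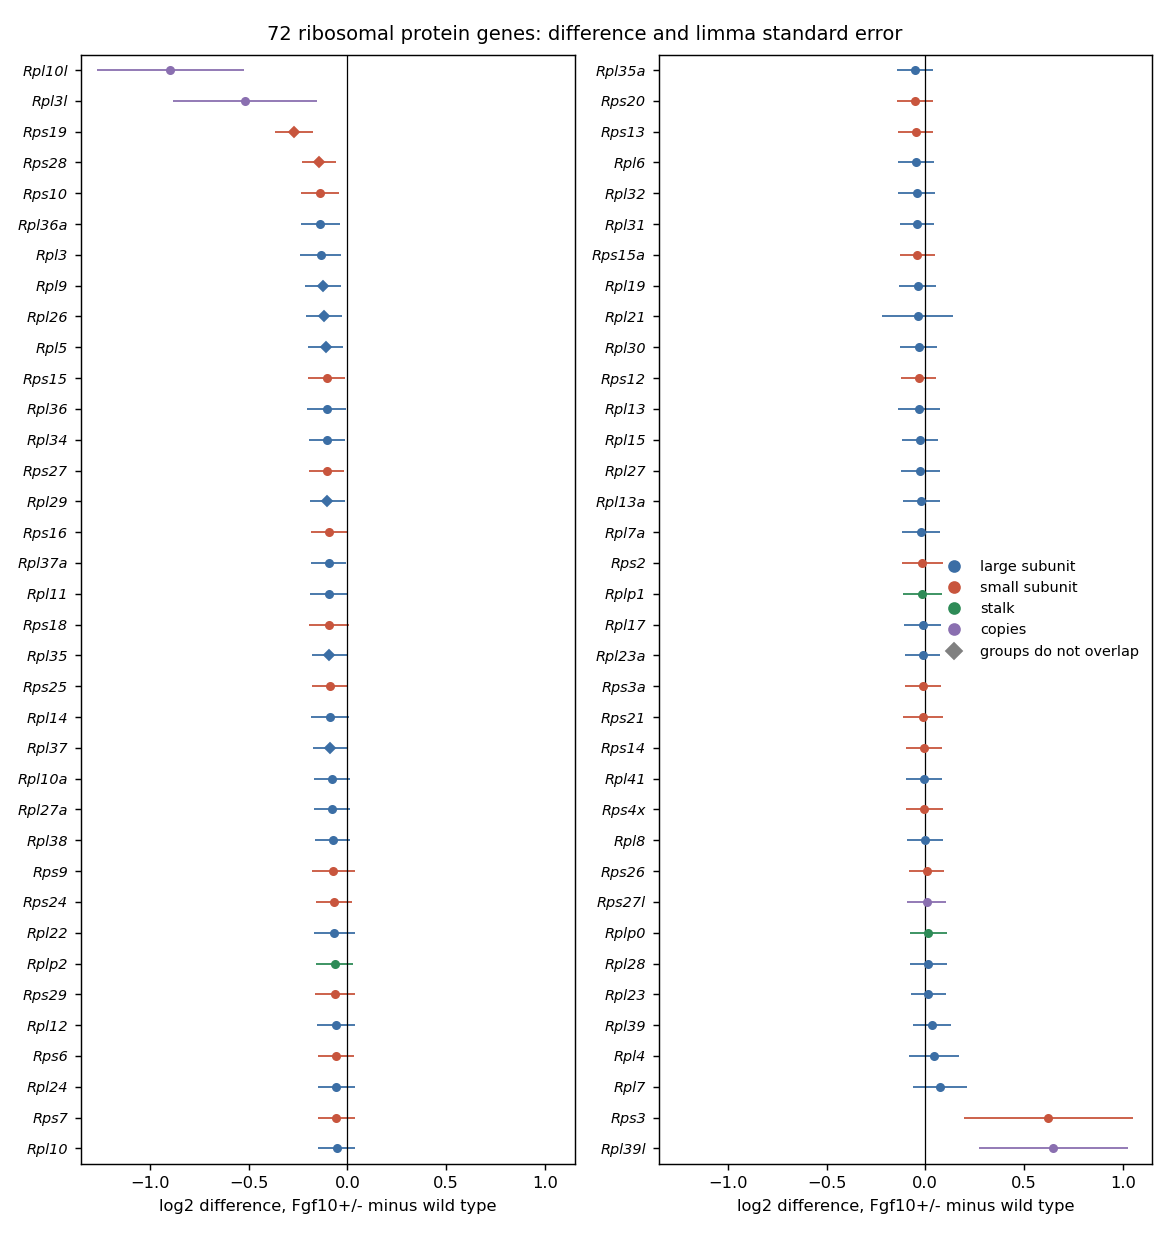
Log2 difference (Fgf10+/- minus wild type, 4 arrays each) of the 72 genes, ordered from the lowest in the left panel to the highest in the right. Bars are limma standard errors, colours give the subunit, and diamonds mark genes whose 2 groups do not overlap. Of the genes 62 lie left of 0, most within 0.1 of it, while Rpl10l, Rpl3l, Rps3 and Rpl39l lie beyond 0.5.

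Signal near the top of the scale touches this set more than others. The highest value in the table was 15.99, and a 16-bit scanner cannot write above 16. Of the 64 genes with a mean of 15 or more, 17 were members, and of the 349 with a mean of 13 or more, 64 were. The highest single value of a member was 15.89, in the brightest feature of Rplp0. The 17 members at 15 or more had a median difference of -0.069, with 16 of 17 lower, and the 55 below 15 had -0.043, with 46 of 55 lower. The 47 other genes at 15 or more had a median of 0.064, and the 285 other genes at 13 or more had 0.023. The arrays had been brought to 1 common distribution, so at the bright end a fall of some genes and a rise of their neighbours in rank cannot be told apart.

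**Figure D2:**
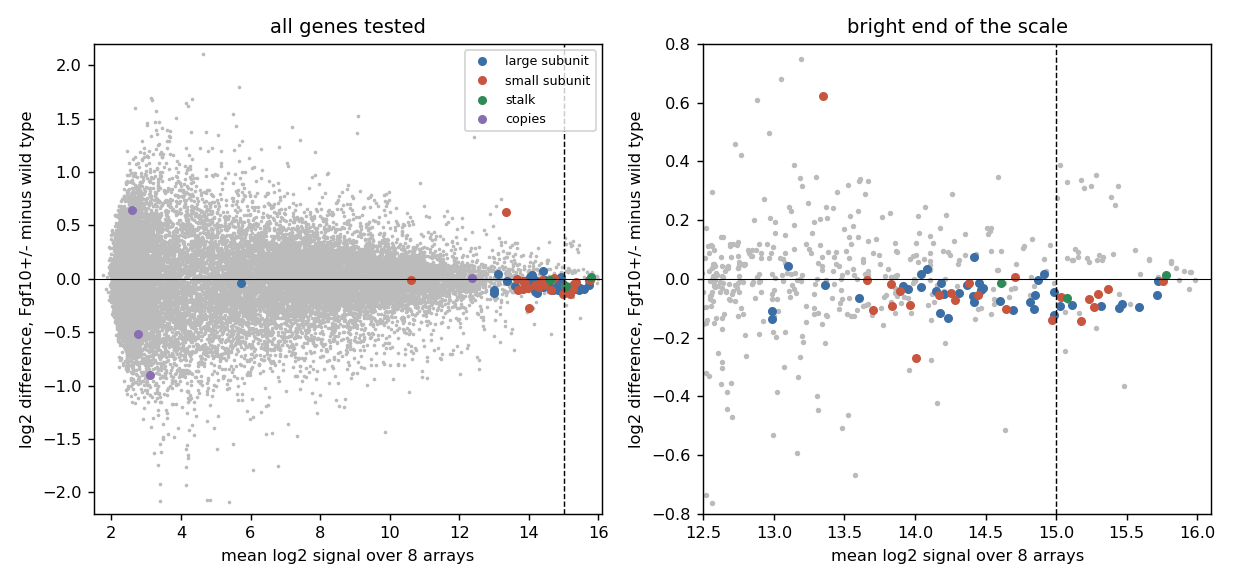
Log2 difference (vertical axis) against mean log2 signal over 8 arrays (horizontal axis) for all genes tested (grey) and the members (coloured), with the bright end enlarged on the right and a dashed line at 15. Most members sit in a band just below 0 between 13 and 16, while other genes of that brightness scatter on both sides.

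The shift was spread over the arrays and not carried by 1 of them. For each member the mean over the 8 arrays was taken off, and the median of what remained was 0.043, 0.021, 0.040 and 0.022 in wild-type replicates 1 to 4. In Fgf10+/- replicates 1 to 4 it was -0.043, -0.063, -0.002 and -0.038. In these medians all 4 Fgf10+/- arrays lay below all 4 wild-type arrays, with Fgf10+/- replicate 3 closest to them. The mean deviations did not part the genotypes. Fgf10+/- replicate 3 had a mean deviation of 0.0127, above wild-type replicates 2 (0.0073) and 3 (0.0123). The members above their own mean numbered 48 to 54 of 72 in the wild-type arrays and 16 to 34 in the Fgf10+/- arrays. With 1 array left out at a time, the median difference ran from -0.062 to -0.045.

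**Figure D3:**
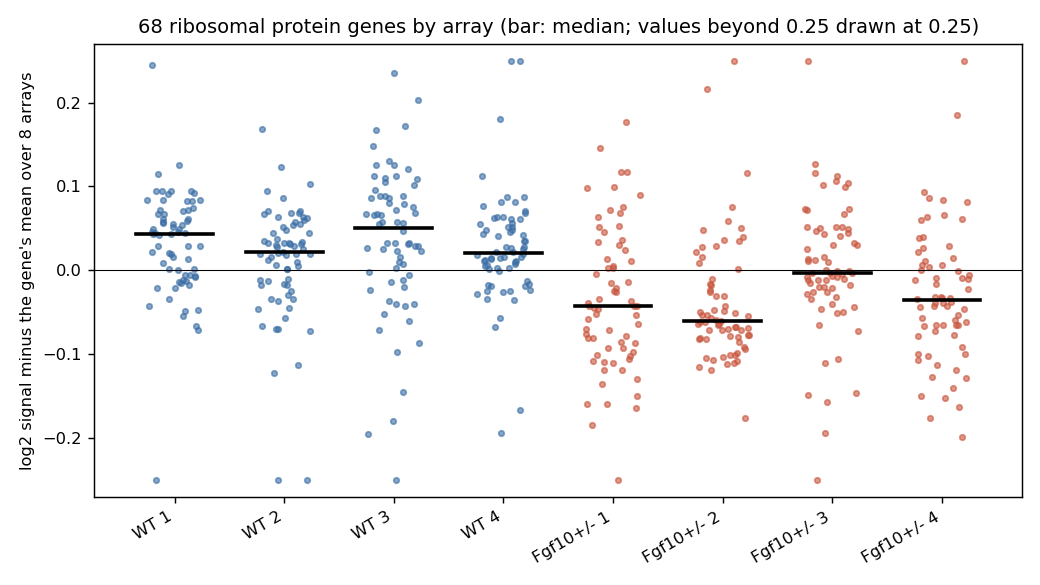
Log2 signal of 68 members (the copies Rpl3l, Rpl10l, Rpl39l and Rps27l left out) minus each gene's mean over the 8 arrays, by array; bars are medians. The 4 wild-type medians lie above 0 and the 4 Fgf10+/- medians below it, Fgf10+/- replicate 3 only just.

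Some gene lists of other kinds differed in level between the genotypes, and others were set apart by 1 array. The summed level of the cell cycle list, as a mean deviation, was -0.49 to -0.08 in the wild-type and 0.23 to 0.38 in the Fgf10+/- arrays, and 24 of its 25 measured genes had a higher mean there. Alveolar type 2 cell markers were lower in mean for 16 of 16 genes, with a mean deviation of 0.17 to 0.36 in wild-type and -0.40 to -0.09 in Fgf10+/- arrays. In the cell cycle list Tyms (-0.054) and Aurkb (0.10) were lowest and Cenpf (1.38) and Bub1 (1.08) highest, and among the type 2 cell markers Napsa (-0.93) and Lpcat1 (-0.86) were lowest and Fasn (-0.25) and Sftpc (-0.0024) highest. Ciliated cell markers had a median of -0.53, from Ccdc40 (-0.83) and Cfap126 (-0.69) to Tekt2 (-0.29) and Dnah9 (-0.046). Their mean deviation was 0.075 to 0.42 in wild-type and -0.38 to -0.039 in Fgf10+/- arrays. Cardiac muscle had -0.78, from Myh7 (-1.44) and Actn2 (-1.19) to Hcn4 (-0.50) and Nppa (-0.060), and skeletal muscle -1.02, from Tnnt3 (-2.07) and Tnnc2 (-2.07) to Mb (-0.024) and Mylpf (0.38). Cartilage had -0.90, from Comp (-2.08) and Col9a1 (-1.92) to Hapln1 (0.057) and Matn1 (0.098), and fat -0.60, from Cidec (-1.60) and Cidea (-1.08) to Pck1 (0.49) and Lep (0.55). Wild-type replicate 4 alone stood high in these last 3 tissues. Its mean deviation was 3.10 for skeletal muscle, 3.22 for cartilage and 1.27 for fat, while the other 7 arrays, of both genotypes, lay at -0.70 to -0.24, -0.58 to -0.33 and -0.41 to 0.15. Erythroid markers had -0.050, from Gata1 (-0.48) and Rhd (-0.44) to Hbb-bs (0.27) and Epb42 (0.50), and lymphocyte markers 0.033, from Cd2 (-0.35) and Cd8a (-0.30) to Cd79a (0.25) and Ms4a1 (0.42), and for both lists the arrays of the genotypes overlapped. The part of all these lists in the ribosomal protein difference was not tested, and in whole lung a change in the mix of cells and a change of RNA per cell cannot be told apart. The brightest of 10 Fgf10 features read 7.46 ± 0.40 (SD, n = 4) in wild-type and 7.95 ± 0.32 (SD, n = 4) in Fgf10+/- lungs. This feature was not lower in the arrays labelled Fgf10+/-, and the other Fgf10 features are not described here. Where its probe lies relative to the changed part of the allele is unknown here.

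The non-overlapping member with the largest difference was in the small subunit. Rps19, needed to mature the small subunit and mutated in Diamond-Blackfan anaemia, had log2 signals of 14.25, 14.11, 14.18 and 14.03 in the wild-type lungs. In the Fgf10+/- lungs it had 13.95, 13.83, 13.85 and 13.85. Every Fgf10+/- value lay below every wild-type value. The difference of -0.27 (SE 0.097) is a signal 17.0% lower and it rests on 1 feature. It ran from -0.31 to -0.23 with 1 array left out. Rps28, a small subunit protein at the exit of the mRNA channel, had 15.25, 15.24, 15.26 and 15.24 in wild type. Its Fgf10+/- values were 15.06, 15.06, 15.15 and 15.13, which also do not overlap, with a difference of -0.14 (SE 0.087) near the scale top.

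The other small subunit genes differed less. Of the 24, 22 had a lower mean, and their median was -0.056. Rps10, a protein of the subunit's head, differed by -0.14 (SE 0.095), and Rps15, whose tail reaches toward the decoding centre, by -0.10. Rps27, a zinc-finger protein with 4 features, had -0.10 on its brightest feature, and all 4 of its features were lower, from -0.15 to -0.10. Rps16 was very even in wild type, at 15.32, 15.31, 15.33 and 15.31, and lower in mean by 0.095 in Fgf10+/-, where replicate 3 reached 15.31. Rps18, also in the head, differed by -0.093. At the other end stood Rps26 (0.0069), part of the mRNA exit channel, Rps4x (-0.0052), encoded on the X chromosome, Rps14 (-0.0079), lost in the human 5q- syndrome, Rps21 (-0.011), Rps3a (-0.013) and Rps2 (-0.016), at the mRNA entry.

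Among the 41 large subunit genes 36 had a lower mean, and the median was -0.052. The groups did not overlap for 6 of them. Rpl9 had 15.01, 15.04, 15.07 and 15.07 in wild type against 14.99, 14.91, 14.96 and 14.84 in Fgf10+/-, a difference of -0.12 (SE 0.091). Its lowest wild-type and highest Fgf10+/- values nearly met. The second Rpl9 feature, at a mean of 14.70, differed by only -0.018, and there the groups overlapped. Rpl26, which lies at the exit of the peptide tunnel, had 14.23, 14.20, 14.28 and 14.23 against 14.01, 14.11, 14.17 and 14.18. Its 3 features agreed in sign, at -0.12, -0.18 and -0.24. Rpl5, which carries a small ribosomal RNA into the large subunit had 13.08, 13.01, 13.05 and 13.01 against 12.90, 12.89, 12.95 and 12.99. It was the dimmest of the non-overlapping members, and its difference was -0.11 (SE 0.089).

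The remaining 3 non-overlapping genes were near the scale top. Rpl29, which mice can live without though they stay small, had 15.49, 15.48, 15.54 and 15.48 in wild type and 15.34, 15.37, 15.44 and 15.45 in Fgf10+/- (difference -0.10). Rpl35, at the tunnel exit, had 15.39, 15.34, 15.41 and 15.33 against 15.30, 15.24, 15.29 and 15.28 (difference -0.091). Rpl37 had 15.55, 15.52, 15.49 and 15.48 against 15.42, 15.40, 15.45 and 15.42 (difference -0.087, or 5.85% lower). Counting both subunits, the groups did not overlap for 8 members, or 11.1%, all lower in Fgf10+/-, beside 4.40% of all genes, and 0 members were higher without overlap, beside 2.99% (7.39% of all genes in either direction). Fewer arrays make non-overlap easier by construction, and the count was 18 without Fgf10+/- replicate 3, 15 without wild-type replicate 4 and 13 without Fgf10+/- replicate 1. Among genes with a mean of 13 or more, 7 of 64 members were lower without overlap and 0 higher. Of the 285 other genes that bright, 24 were lower without overlap and 24 higher. Nothing is read from these counts and shares, as the set was proposed from this comparison.

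**Figure D4:**
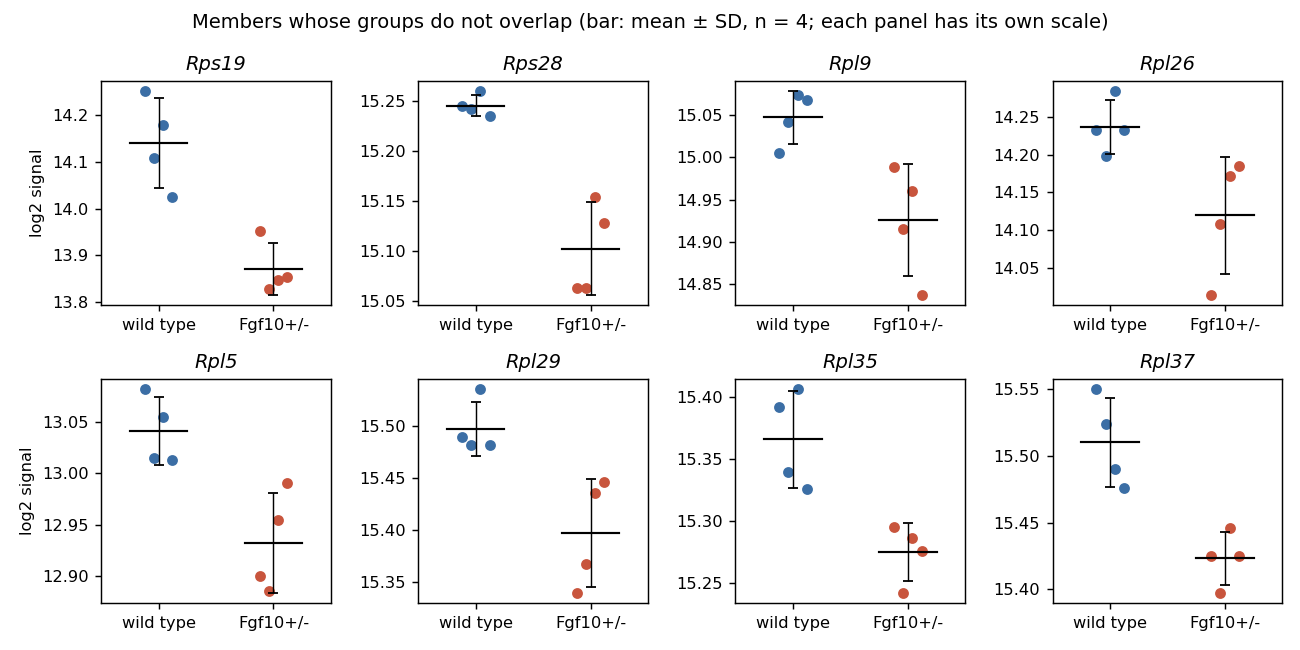
Log2 signal of the 8 members whose groups do not overlap, 1 point per lung, with mean ± SD (n = 4) and a scale of its own for each panel. The gap between the groups is widest in Rps28 (15.24 against 15.15 at its edges) and Rps19 and narrowest in Rpl26.

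The lowest large subunit genes with overlapping groups were Rpl36a (-0.14), Rpl3 (-0.13), Rpl36 (-0.10) and Rpl34 (-0.10). Rpl3, whose loop reaches the site of peptide bond formation, owed part of its value to Fgf10+/- replicate 3, at 13.97 when the other 7 arrays were between 14.20 and 14.36. Without that array its difference was -0.070. The second Rpl3 feature differed by -0.15, and there Fgf10+/- replicate 3, at 13.92, was the highest of its group. Genes at the other end included Rpl7 (0.074), Rpl4 (0.045), a tunnel protein, Rpl39 (0.035), which lines the tunnel, Rpl23 (0.016), Rpl28 (0.016), Rpl8 (-0.0029) and Rpl41 (-0.0061), the smallest ribosomal protein. Rpl10, which joins the large subunit last, differed by -0.055 (SE 0.095) at a mean of 15.7, while its features ran from -0.055 to 0.094. The values of the brightest Rpl7 feature followed the replicate numbers more than the genotype. They were 14.51 and 14.54 in wild-type replicates 1 and 2, 14.59 and 14.63 in the same Fgf10+/- replicates, and 14.22 to 14.32 in replicates 3 and 4 of both groups. Rpl4 showed the same order, with 13.15 to 13.27 in replicates 1 and 2 and 12.91 to 13.06 in replicates 3 and 4. So did the Rpl7 feature at a mean of 14.16, but those at 14.35 and 13.18 did not. The 4 features of Rpl7 ran from -0.067 to 0.074. In the dimmest, at -0.067, every Fgf10+/- value lay below every wild-type value. The sources used here do not state what the numbers stand for. Rpl21 was the dimmest usual member, at a mean of 5.71, and differed by -0.038.

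The stalk of the large subunit recruits the elongation factors, and its 3 genes had a median difference of -0.015. Rplp0, its base, had 15.84, 15.77, 15.72 and 15.75 in wild type and 15.89, 15.75, 15.77 and 15.72 in Fgf10+/-. Its difference was 0.014 (SE 0.093), and it is the only member with several features of which all were higher in mean, from 0.014 to 0.14. Rplp1 differed by -0.015 (SE 0.10) and Rplp2 by -0.064 (SE 0.093), both with overlapping groups. Whether the stalk differs from the other members was not tested.

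Rps3 stood apart because its brightest feature took either of a pair of levels. Rps3 is a small subunit protein at the mRNA entry that also works in DNA repair. This feature read 12.71, 12.66 and 12.74 in wild-type replicates 1 to 3 and 14.04 in wild-type replicate 4. It read 12.60 in Fgf10+/- replicate 1 and 14.03, 13.99 and 14.01 in Fgf10+/- replicates 2 to 4. No array lay between 12.74 and 13.99, and the levels crossed the genotypes. The difference of 0.62 (SE 0.43) therefore reflects 3 arrays against 1, and it was 0.96 without wild-type replicate 4 and 0.98 without Fgf10+/- replicate 1. The second feature of Rps3 went the other way in the same arrays, at 11.29 to 11.43 in those 4 and 11.67 to 11.84 in the other 4, and its difference was -0.23. The third feature, at 6.47 to 7.09, did not follow either.

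Some genes of the heat and cold response parted the same 4 arrays from the other 4, as seen after the Rps3 values. Hsph1, a heat shock chaperone, had 9.87 in wild-type replicate 4 and 9.99 to 10.89 in Fgf10+/- replicates 2 to 4, against 7.81 to 8.30 in the other 4 arrays. Hspa1a, the inducible HSP70, had 5.93 to 8.35 in those 4 arrays and 3.93 to 4.47 in the others. Cirbp, an RNA-binding protein induced by cold, ran the opposite way, at 9.45 to 9.92 against 11.04 to 11.60. The brightest features of Dnajb1, Hsp90aa1 and Hspe1 also parted these arrays, but those of Hspa8, Hspd1 and the cold-induced Rbm3 did not. The brightest Hspa8 feature, for example, had 14.15 in wild-type replicate 4 and 14.23 in Fgf10+/- replicate 1. Dimmer features gave other readings. The second Hspa8 feature had 13.95 to 14.16 in those 4 arrays and 13.19 to 13.39 in the other 4. The third had 11.41 to 11.63 against 10.72 to 10.87. The dimmer features of Hspe1 did not part the arrays. Nor did the second Rbm3 feature. The dimmest Rbm3 feature did, near the floor, at 4.53 to 4.76 in those 4 arrays and 3.91 to 4.08 in the other 4. The part of these genes in the Rps3 value was not tested. The labels give no body or tissue temperature.

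**Figure D5:**
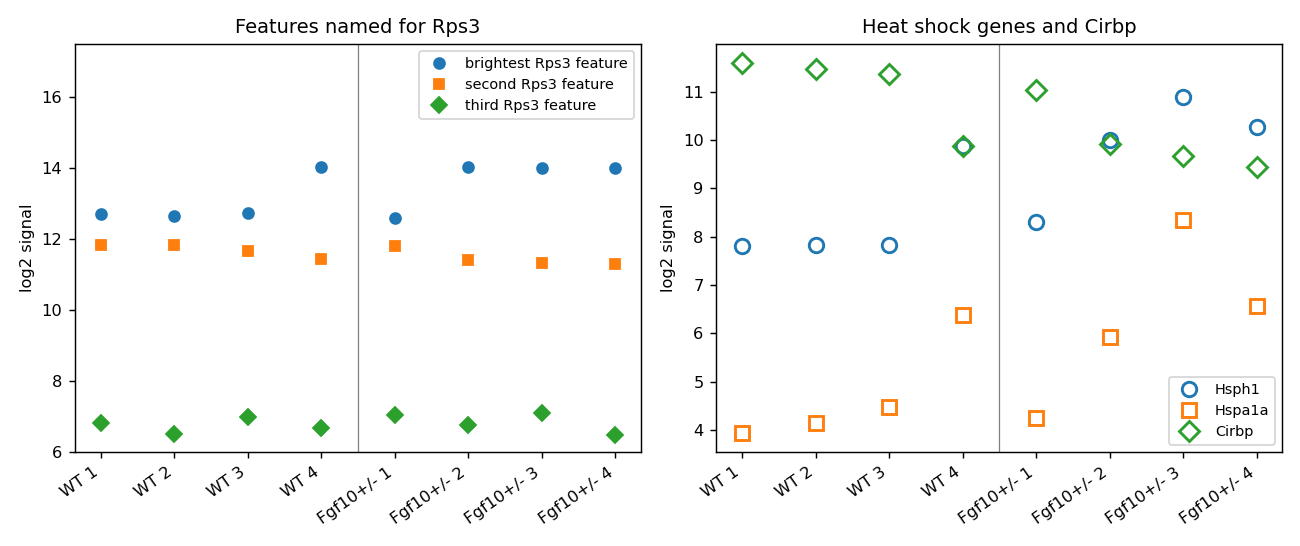
Log2 signal in each array of the 3 features named for Rps3 (left) and of the brightest features of Hsph1, Hspa1a and Cirbp (right); the grey line parts the genotypes. The brightest Rps3 feature and both heat shock genes are high, and Cirbp low, in wild-type replicate 4 and Fgf10+/- replicates 2 to 4.

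Copies made in few tissues gave signals near the floor of the arrays, where the median feature was at 3.47. Rpl3l, the form of Rpl3 in skeletal and heart muscle, had 4.07 in wild-type replicate 4 and 2.04 to 2.95 in the other 7 lungs. That array also stood highest in skeletal muscle markers: all 16 measured of 16 were above their own mean there, and their mean deviation was 3.10, against -0.70 to -0.24 elsewhere. Markers of cardiac muscle had a mean deviation of 0.19 to 0.58 in wild-type and -0.59 to -0.10 in Fgf10+/- arrays. The part of these tissues in the Rpl3l value was not tested. The Rpl3l difference was -0.52 (SE 0.36), or -0.17 without wild-type replicate 4. Rpl10l, a testis copy of Rpl10, had a difference of -0.90 on 1 feature and 0.046 on the other, both dim. Rpl39l, another testis copy, had 0.65 (SE 0.38) with all values between 1.87 and 3.63. Rps27l, a stress-induced copy of Rps27, was clearly expressed and alike in mean, at 12.37 ± 0.079 (SD, n = 4) and 12.38 ± 0.081 (SD, n = 4), a difference of 0.0077 (SE 0.098). Rps4l, which the array names by another symbol and which is no member, had a difference of 0.076 (SE 0.25).

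Features named for 1 gene are not separate measures of its biology, so they check the reading only. For some genes, Rps3 and Rps24 among them, the platform lists the features under different transcript records. Of the 170 features 137 had a lower mean in Fgf10+/-, beside 15702 of all 31425 named features, with a median of -0.063. The groups did not overlap for 23 features of 20 genes, all lower, beside 4.03% of named features lower without overlap. Among 51 genes with several features, all were lower for 32 and both signs occurred for 18. The 118 features with a mean of 13 or more held differences from -0.27 to 0.62, while the 8 below 5 ran from -0.90 to 0.65. Rps15a showed how a dim feature can mislead: its bright features differed by -0.041 and -0.085, and the third, at a mean of 2.94, by 0.55. Rpl23 had 12 features, from -0.18 to 0.049.

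A list of 7 further ribosomal protein genes, whose symbols fall outside the rule, had 5 measured. Rps4l, described above, was not on that list. Fau, whose product is cut to yield a small subunit protein, had 15.37, 15.37, 15.34 and 15.38 in wild type and 15.09, 15.17, 15.30 and 15.23 in Fgf10+/-. These do not overlap, and the difference was -0.17 (SE 0.094). Rpl22l1 differed by -0.11 and Rpl36al by -0.080, while Rpsa, the laminin receptor precursor, had 0.095 and Rpl7l1, a dim gene, 0.18.

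Other genes of protein synthesis did not share a lower median. Of 78 mitochondrial ribosomal protein genes, 40 had a lower and 38 a higher mean, with a median of -0.0027. The lowest were Mrpl1 (-0.26) and Mrpl23 (-0.23), and the highest Mrpl35 (0.39) and Mrpl37 (0.32). Of 17 elongation factors and other genes with TOP mRNAs, 8 were lower in mean and the median was 0.0001. Eif3h (-0.15) and Eif3f (-0.13), subunits of an initiation factor, were lowest, and Hnrnpa1 (0.20), an RNA-binding protein, and Pabpc1 (0.18), the poly(A)-binding protein, highest. The 27 initiation factors had a median of 0.013, from Eif5b (-0.30, dim) and Eif4a2 (-0.23) to Eif4g2 (0.26) and Eif2s3x (0.92, SE 1.06).

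Makers of ribosomes spread on both sides, while most genes of growth control were lower in mean. The 45 ribosome biogenesis genes had a median of 0.022, with 25 higher in mean. They ran from Wdr43 (-0.44) and Rrp1b (-0.28) to Dkc1 (0.36), the pseudouridine synthase of ribosomal RNA, and Rrp12 (0.70, dim). The 17 genes of RNA polymerase I and ribosomal DNA had a median of 0.085, from Polr1e (-0.23) and Polr1c (-0.19) to Ttf1 (0.41, dim) and Top2a (0.60), a topoisomerase that the cell cycle list also holds. The 17 genes of Myc and mTOR growth control had a median of -0.065, with 13 lower in mean. Their median deviation was 0.013 to 0.073 in the wild-type and -0.14 to -0.0082 in the Fgf10+/- arrays. In their mean deviation the arrays of the genotypes overlapped. Tsc2 (-0.44, dim) and Rps6kb2 (-0.40), a kinase of the ribosomal protein S6, were lowest, and Mycn (0.20) and Rheb (0.20), the activator of mTOR, highest. In limma with adjustment over all genes, 0 genes of these lists passed, as did 0 of all genes.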

How the data were processed

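The deposited values are log2 signals of 62976 features on 8 arrays. The authors had brought the arrays to a common distribution, as the values show: sorted columns differed by at most 0.0042. The submitters' processing notes name limma, without a version. Per the labels' protocols, miRNeasy RNA went through Agilent's Low-Input QuickAmp labelling. The sources used here state neither background correction nor saturation flags, and differences near the floor or the top may be compressed.

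Features were named from the platform annotation (31465 with 1 symbol, 31511 unnamed). Symbols of genes other than members were updated through RefSeq accessions (29050 matched). Features with a blank were left out (120, none of a member). The feature with the highest mean stood for its gene. Limma 3.58.1 (R 4.3.3) was fitted to 20841 genes with group only, two-sided. In data simulated with the spread of these 20841 genes, it found 39 of 100 genes shifted by 1 on the log2 scale and 76 of 100 shifted by 2. Precision is limited by the number of arrays, and neither litter nor slide is stated. The sex of the pups is not given here. Xist, an RNA of female cells, read 6.31, 2.81, 6.74 and 6.75 in wild-type replicates 1 to 4. In Fgf10+/- replicates 1 to 4 it read 6.44, 1.91, 6.64 and 2.03. The groups were thus not matched in Xist, and the part of sex in any difference was not tested. The p-values measure the spread between these samples. Members and lists were chosen with earlier results of these data known. Named were Fgf10, the stalk genes, the copies with their usual forms, the 6 highest and 6 lowest of each subunit, genes without overlap, genes whose features differ in sign by over 0.5, and the 2 highest and 2 lowest of each related list. Rps12, Rpl21, Xist and the heat and cold response genes fall outside that rule and were chosen after their values were seen.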

Additional observations from a re-analysis of the deposited data

Results flagged for a closer look

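In 82 sets of 4 arrays (40 named genes and the members' median deviation, in each genotype) the end value was checked for a gap beyond Dixon's critical value, which chance gives in about 1 of 20 sets. It was found in 6. For Rps3, the wild-type value of 14.04 (replicate 4) and the Fgf10+/- value of 12.60 (replicate 1) stood apart from the other 3 of their group. For Rpl39, the Fgf10+/- value of 13.95 (replicate 1) was below the others, and for Rpl28, the Fgf10+/- value of 13.96 (replicate 1) was. For Rpl23, the Fgf10+/- value of 15.03 (replicate 3) was above the others. For Rpl29, the wild-type value of 15.54 (replicate 3) was above the others.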

How the results depend on the processing

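The members' median difference kept its sign under every alternative run, and it moved by less than the spread between arrays (SD 0.0197). The count of all genes called was 0 in the usual fit, 38 and 288 with the dimmest 25% or 50% of genes left out, 414 with a variance trend and robust settings, 3 with array weights, and 0 to 1 with 1 array left out. With the variance trend 1 member was called. No other alternative called a member. The members whose groups do not overlap numbered 8, against 23 when every feature counted on its own, 22 with wild-type replicate 4 and Fgf10+/- replicate 3 both left out, and 9 to 18 with 1 array left out. Same-numbered arrays correlated at 0.018 to 0.11 in their deviations, and the numbers were not taken as pairs. With the replicate number as a block the count of genes called stayed at 0 and the median at -0.053. Of 755 values of 40 named genes under the alternatives, 749 stayed within 1 SD and 49 changed sign, in 17 genes. Rps3 was among these, at -0.23 with its brightest feature left out, an alternative chosen after seeing the data. A pseudocount was not needed for log2 values. Signals above 15 and below 5 limit what these arrays can show.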

Other observations

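A second feature of Rps12, a small subunit protein, was chosen after its values were seen. It shared the order of the brightest Rpl7 feature and of Rpl4, with 14.96 to 15.13 in replicates 1 and 2 of both genotypes and 14.66 to 14.90 in replicates 3 and 4.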
